A study of Mus musculus with 4 samples.

Results

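*Klf2*, *Klf3*, *Klf6*, *Klf7*, *Klf10* and *Klf13* of the Krüppel-like factor (KLF) family and *Sp1*, *Sp3*, *Sp4* and *Sp6* of the specificity protein (SP) family were described in CD69+DP thymocytes, the CD4+CD8+ cells that carry CD69 after a TCR signal. The 10 genes were found by their symbols, and all of them were among the 24421 genes with a value. RNA came from 4 sorted samples, each from different mice, aged 6 weeks and on a C57BL/6 background. All mice were homozygous for the floxed alleles of both factors, Foxa1fl/flFoxa2fl/fl. The 2 control samples lacked Cre. The 2 Foxa1/2cKO samples carried CD4Cre, in which the *Cd4* promoter drives Cre from the DP stage onwards, so that earlier thymocytes and cells outside the T lineage keep both genes. The labels and methods do not state whether the RNA of several mice was pooled in a sample. The values are FPKM, which count fragments per length of gene and per depth of the sample, so levels of different genes can be set side by side.

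KLF and SP proteins are transcription factors with zinc fingers at the C-terminal end, through which they bind GC boxes and the related CACCC boxes of promoters. SP1, SP3 and SP4 act on many widely used GC-rich promoters, whereas several KLF proteins recruit corepressors. In thymocytes KLF2 is best known. It is switched on after positive selection, is kept up by FOXO1, and activates *S1pr1*, which encodes the receptor for sphingosine-1-phosphate needed to leave the thymus. CD69 holds this receptor inside the cell, so that cells at the CD69+ stage do not yet leave.

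Between 11024520 and 15350127 reads per sample were recovered from the values, fewer in Foxa1/2cKO than in control. *Foxa1* and *Foxa2* themselves were listed at 0 throughout, also in control, and so these values tell nothing about the genotypes. By qRT-PCR, the paper detected both genes in wild-type DP cells. In CD4 and CD8 single-positive thymocytes it detected them in control but not in Foxa1/2cKO. A count of 0 allows up to 3 reads, which is an FPKM of up to 0.0871 for *Foxa1* and 0.127 for *Foxa2*, counting error only. The Foxa1/2cKO samples lay further apart than the controls, with an SD of the log2 difference over the 10776 tested genes of 0.405 against 0.198. Markers of DP thymocytes were present (9 of 9 above an FPKM of 1), and 7 of the 9 were higher in Foxa1/2cKO 2 than in Foxa1/2cKO 1. B-cell markers (5 of 5 detected) had a summed FPKM of 75.6 and 50.3 for the controls against 104 for Foxa1/2cKO 1 and 54.0 for Foxa1/2cKO 2. Myeloid markers (5 of 5) summed to 12.6 to 27.4, and the 7 of thymic epithelium to 3.26 and 3.19 for the controls against 4.21 and 3.76. Of these 7, *Epcam* alone was above an FPKM of 1 (2.76 and 2.89 against 3.86 and 3.37). *Krt8* went the other way (0.296 and 0.245 against 0.205 and 0.0999). *Psmb11* reached 0.127 at most, and the others, the defining *Foxn1*, *Krt5* and *Krt14* among them, 0.122. The part of such cells in the results was not tested. In bulk RNA, fewer cells of a type and less RNA per cell cannot be told apart.

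The promoters of these genes were searched for the sites that the proteins themselves read. RefSeq (GRCm38.p6, the assembly of mm10) gave windows of 250 bases before the annotated start for 8 of the 10 genes, all but *Klf10* and *Sp6*, in 9 windows. The GC box, GGGCGG or CCGCCC on the other strand, was found in 9 of the 9, and in 32.7% of all 32851 windows of this length. The CACCC box, CCACCC or GGGTGG on the other strand, was found in 5 of the 9, and in 28.1% of all windows. The G and C content of the 9 windows was 59.2% to 80.0%, and the median of all windows was 52.4%. The forkhead cores TGTTTAC and TGTTTGC, searched on both strands because FOXA proteins bind such sites, were in 2 of the 9 (*Klf3* and the upstream start of *Sp3*) and in 7.29% of all windows. A match describes letters and is no bound site. The window of *Klf3* (6 GC boxes), also higher in both Foxa1/2cKO samples, and the downstream window of *Sp3* (5 GC boxes) are not printed. Printed 5′ to 3′ with GC boxes in capitals are the windows of *Klf2*, *Sp1*, *Sp3* (upstream start) and *Sp4*. The level of *Klf2* differed between the Foxa1/2cKO samples, and *Sp1*, *Sp3* and *Sp4* were higher in both Foxa1/2cKO samples.
Klf2 (chr8:72318812-72319061, plus strand): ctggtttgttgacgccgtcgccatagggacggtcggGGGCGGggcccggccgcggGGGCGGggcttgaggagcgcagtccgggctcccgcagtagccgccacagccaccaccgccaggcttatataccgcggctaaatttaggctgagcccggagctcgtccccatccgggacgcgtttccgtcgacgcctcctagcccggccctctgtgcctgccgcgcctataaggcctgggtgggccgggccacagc
Sp1 (chr15:102406066-102406315, plus strand): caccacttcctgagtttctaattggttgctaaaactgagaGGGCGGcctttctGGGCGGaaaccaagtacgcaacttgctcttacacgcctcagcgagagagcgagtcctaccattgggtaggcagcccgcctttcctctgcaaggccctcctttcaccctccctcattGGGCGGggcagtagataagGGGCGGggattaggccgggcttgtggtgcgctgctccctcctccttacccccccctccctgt
Sp3 (chr2:72980447-72980696, minus strand): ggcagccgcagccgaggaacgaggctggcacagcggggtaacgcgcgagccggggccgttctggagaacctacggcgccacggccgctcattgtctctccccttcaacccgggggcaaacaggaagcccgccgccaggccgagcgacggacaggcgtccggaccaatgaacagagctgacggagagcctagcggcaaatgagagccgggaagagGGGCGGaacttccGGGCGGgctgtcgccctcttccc
Sp4 (chr12:118301441-118301690, minus strand): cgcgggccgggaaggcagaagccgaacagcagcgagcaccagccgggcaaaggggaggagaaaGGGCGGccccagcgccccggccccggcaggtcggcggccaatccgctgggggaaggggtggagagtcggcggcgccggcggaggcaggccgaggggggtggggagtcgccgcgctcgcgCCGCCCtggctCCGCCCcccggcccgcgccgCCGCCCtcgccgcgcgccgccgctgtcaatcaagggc

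*Klf13* was the most abundant of the 10 and *Sp6* the least. The mean FPKM in control was 103 for *Klf13*, 44.5 for *Sp3*, 40.0 for *Klf2*, 39.8 for *Sp1*, 26.1 for *Klf3*, 17.2 for *Klf7*, 16.7 for *Klf10*, 12.8 for *Klf6*, 11.8 for *Sp4* and 3.74 for *Sp6*. In this order only *Klf2* and *Sp1* were neighbours with overlapping control samples. In Foxa1/2cKO *Klf2* came after *Sp1* and *Klf3*, and *Sp4* came before *Klf6*. There *Klf3* and *Klf2*, *Klf7* and *Klf10*, and *Klf10* and *Sp4* overlapped. The summed FPKM of the 10 genes was 316 and 315 in control and 328 and 323 in Foxa1/2cKO. *Klf13* made up 27.4% to 28.1% of the FPKM of both families in every sample, whereas *Klf2* made up 10.1% to 11.7% in 3 samples and 4.45% in Foxa1/2cKO 2.

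**Figure D1:**
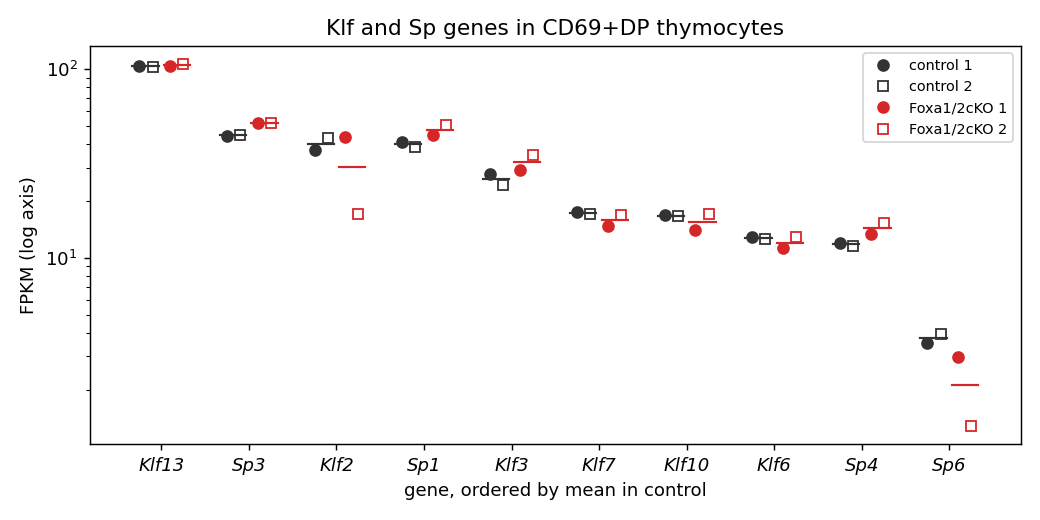
FPKM of each gene (log axis) in control 1 and 2 (black) and Foxa1/2cKO 1 and 2 (red), ordered by the control mean, with short lines at the group means. *Klf13* sits between 103 and 106 in all samples, while *Klf2* (17.0) and *Sp6* (1.28) are lowest in Foxa1/2cKO 2.

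Comparing Foxa1/2cKO with control asks which genes differ in selecting cells that lack both factors. Differences were fitted by limma on log2(FPKM + 1), a scale that understates the change of low genes. They are given as Foxa1/2cKO minus control with the standard error (SE), and the p-values were adjusted over all 10776 genes that reached an FPKM of 1 in 2 or more samples. All 10 KLF and SP genes reached it. Of these, 0 passed an adjusted p of 0.05 in limma or in limma-voom on recovered reads, and 0.00928% of all tested genes passed it in limma. An unadjusted p under 0.05 was found for 1 of the 10, *Sp3*, which was higher (4.55% of all tested genes had one, made up of 2.39% higher and 2.15% lower). In limma-voom *Sp3* and *Sp4* had one, as did 4.84% of all tested genes. For 6 of the 10 the groups did not overlap, against 36.7% of all tested genes. Both Foxa1/2cKO samples were above both controls in 4 (*Klf3*, *Sp1*, *Sp3*, *Sp4*), against 18.9%, and below both in 2 (*Klf7*, *Sp6*), against 17.8%. The median log2 fold change was -0.03 over the 10 genes and 0.01 over all genes. With 2 samples per group the smallest two-sided p of an exact permutation test is 0.333.

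*Klf2* set the Foxa1/2cKO samples apart from each other. This gene lies on chromosome 8 (72319062 to 72321654). The controls had an FPKM of 37.0 and 43.0 (1007 and 1060 reads), while Foxa1/2cKO 1 had 43.4 (850 reads) and Foxa1/2cKO 2 had 17.0 (342 reads). Foxa1/2cKO 1 was thus at the level of the controls and Foxa1/2cKO 2 below every other sample, so that the groups overlapped. Group means were 40.0 ± 4.20 for control and 30.2 ± 18.7 for Foxa1/2cKO (SD, n = 2 each), and the difference on the log2 scale came to -0.53 (SE 0.44, 95% interval -1.68 to 0.61), with an adjusted p of 0.864 in limma, and to 0.12 when Foxa1/2cKO 2 was left out. Foxa1/2cKO 2 minus Foxa1/2cKO 1 was -1.30 on the log2 scale for *Klf2*, and 1.67% of the tested genes had a gap at least this large.

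The egress and homing genes did not all follow *Klf2*. *S1pr1* had an FPKM of 12.3 and 13.9 in control against 13.4 and 6.40 in Foxa1/2cKO 1 and 2. For *Ccr7*, a chemokine receptor that draws thymocytes to the medulla, the values were 82.5 and 91.7 against 86.9 and 39.1. Like *Klf2*, both were low in Foxa1/2cKO 2 alone. For *Itgb7*, a gut-homing integrin chain, they were 49.3 and 48.7 against 57.1 and 34.9, and for *S1pr4*, a further receptor of the lipid, 18.0 and 19.3 against 21.4 and 22.4. *Itgb7* was lowest in Foxa1/2cKO 2 and highest in Foxa1/2cKO 1, and *S1pr4* was higher in both Foxa1/2cKO samples than in both controls. The log2 fold changes were 0.22 for *S1pr4* (SE 0.09), -0.13 for *Itgb7* (SE 0.24), -0.45 for *S1pr1* (SE 0.33) and -0.57 for *Ccr7* (SE 0.38). In limma 0 of the 4 passed an adjusted p of 0.05 and 0 had an unadjusted p under 0.05. The ratio of *Klf2* to *S1pr1* FPKM was 3.005 and 3.10 for the controls and 3.24 and 2.65 for Foxa1/2cKO 1 and 2.

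**Figure D2:**
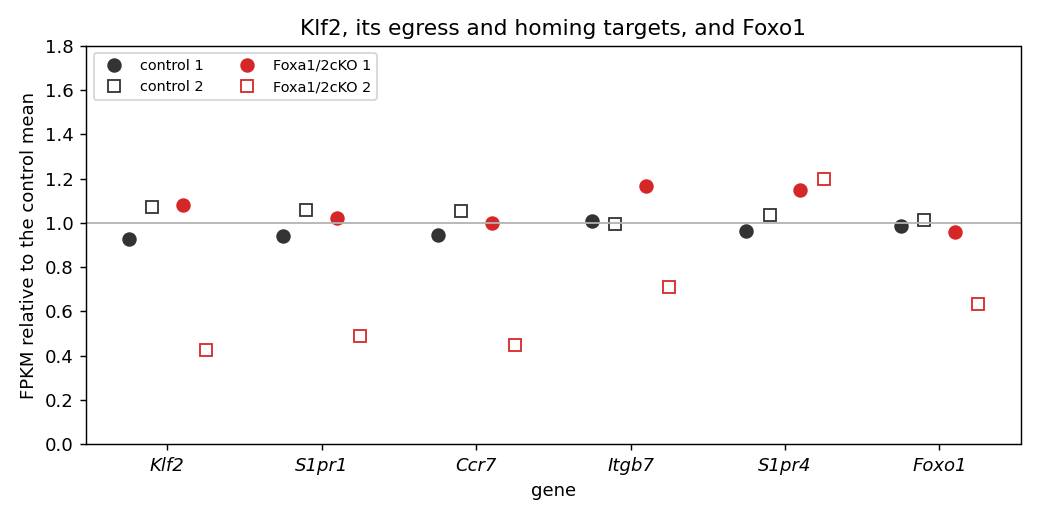
FPKM relative to the control mean (linear axis) for *Klf2*, 4 egress and homing genes and *Foxo1* in control 1 and 2 (black) and Foxa1/2cKO 1 and 2 (red). In Foxa1/2cKO 2 *Klf2* was at 0.424, *Ccr7* at 0.449 and *S1pr1* at 0.488 of the control mean, whereas *S1pr4* was at 1.199.

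Of 5 markers of mature SP thymocytes, 3 of which are among these genes, 4 were lower in Foxa1/2cKO 2 than in Foxa1/2cKO 1. Their summed FPKM was 289.7 and 305 for the controls against 326 and 226. The exception was *Slfn2*, with 112 and 107 against 127 and 133, and so above both controls in both Foxa1/2cKO samples. *Il7r*, the IL-7 receptor chain, had 33.7 and 44.1 against 41.5 and 13.4 (log2 fold change -0.68, SE 0.53). The 5 markers of endothelial cells, which also express *Klf2*, summed to 49.5 and 55.5 for the controls against 56.7 and 62.2, with *Pecam1* alone above an FPKM of 1. *Tie1* was listed at 0 in all samples and *Cdh5* reached 0.536 at most. The immediate-early and stress genes, 11 in number, summed to 343 and 311 for the controls against 271 and 376. The part of maturation, of endothelial cells and of cell stress in the level of *Klf2* was not tested.

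The regulators of *Klf2* and its protein comprised 10 tested genes, among them the FOXO and MEF2 factors, the kinase ERK5 (*Mapk7*) and ubiquitin ligase genes. In limma 0 of them passed an adjusted p of 0.05 and 0 had an unadjusted p under 0.05. Their median log2 fold change was -0.03. *Foxo1* had an FPKM of 33.0 and 34.0 in control against 32.1 in Foxa1/2cKO 1 and 21.2 in Foxa1/2cKO 2 (-0.35, SE 0.20). Foxa1/2cKO 1 was just below the controls and Foxa1/2cKO 2 further below. *Mef2a*, which encodes an activator of *Klf2*, had 35.8 and 36.0 against 40.9 and 40.3 (0.17, SE 0.08), higher in both Foxa1/2cKO samples.

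The 5 tested genes whose centred log2 values over the 4 samples were nearest to those of *Klf2* were *Chek1*, *Ttk*, *Prim1*, *Dlgap5* and *Dscc1*, at a Euclidean distance of 0.0280 to 0.0551. They act in checkpoint control, DNA replication and mitosis. *Chek1*, a checkpoint kinase gene, had 5.82 and 7.05 FPKM in control against 7.09 in Foxa1/2cKO 1 and 2.31 in Foxa1/2cKO 2. With so few samples the likeness rests mainly on the low value of Foxa1/2cKO 2.

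*Sp1*, *Sp3* and *Sp4* all had higher values in both Foxa1/2cKO samples than in both controls. *Sp3*, whose product competes with SP1 for GC boxes, lies on chromosome 2 (72936430 to 72980446). The controls had an FPKM of 44.4 and 44.5, and both Foxa1/2cKO samples had 51.6, from 2469 to 2943 reads. Foxa1/2cKO 2 minus Foxa1/2cKO 1 was -0.00056 on the log2 scale, and 99.7% of the tested genes had a gap at least this large. Group means were 44.5 ± 0.0893 for control and 51.6 ± 0.0145 for Foxa1/2cKO (SD, n = 2 each), and the difference on the log2 scale came to 0.21 (SE 0.08, 95% interval 0.0049 to 0.42), with an unadjusted p of 0.0465 and an adjusted p of 0.863 in limma. It was 0.21 with either Foxa1/2cKO sample left out, which follows from their nearly equal values and adds no support. An SD of 2 such close values is a poor measure of the spread between mice. Over the alternatives that kept all samples, the unadjusted p of *Sp3* in limma or limma-voom ran from 0.0227 to 0.182.

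*Sp1* (chromosome 15, 102406316 to 102436404), the founding gene of the family, had 41.0 and 38.7 FPKM in control against 44.7 in Foxa1/2cKO 1 and 50.5 in Foxa1/2cKO 2. Group means were 39.8 ± 1.60 and 47.6 ± 4.16 (SD, n = 2 each), a difference of 0.25 (SE 0.10, 95% interval -0.02 to 0.51) on the log2 scale, with an adjusted p of 0.863 in limma. *Sp4* (chromosome 12, 118231686 to 118301440), best known from neurons, had 12.0 and 11.6 against 13.4 and 15.2. Its difference was 0.26 (SE 0.11, 95% interval -0.02 to 0.54, adjusted p of 0.863 in limma). In both genes Foxa1/2cKO 2 had the higher value, and without it the log2 fold change was 0.16 for *Sp1* and 0.17 for *Sp4*. The FPKM of *Sp1*, *Sp3* and *Sp4* together came to 97.3 and 94.8 for the controls and to 110 and 117 for Foxa1/2cKO. The ratio of *Sp1* to *Sp3* was 0.922 and 0.869 against 0.865 and 0.979, so that the groups overlapped.

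*Klf3*, which encodes a repressor that recruits CtBP, also had both Foxa1/2cKO samples above the controls. It lies on chromosome 5 (64803521 to 64832901). The controls had an FPKM of 27.9 and 24.4, while Foxa1/2cKO 1 had 29.1 and Foxa1/2cKO 2 had 34.9. Foxa1/2cKO 1 exceeded control 1 by little. Group means were 26.1 ± 2.44 and 31.96 ± 4.10 (SD, n = 2 each), a difference of 0.28 (SE 0.13, 95% interval -0.06 to 0.62) on the log2 scale, with an adjusted p of 0.863 in limma. Without Foxa1/2cKO 2 it was 0.15.

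Long genes were more often higher in Foxa1/2cKO over the whole table. Of 3592 genes with the longest transcripts 59.8% had a positive fold change, and of 3595 with the shortest 44.6%. The lengths behind the FPKM were 7818 bases for *Sp1*, 4428 for *Sp3*, 9017 for *Sp4* and 2314 for *Klf3*. The length of *Klf3* may be a divisor of the true one, as its longest annotated transcript has 5221 bases. Its corrected value is therefore uncertain. A length correction, chosen after seeing the data, gave 0.20 for *Sp1*, 0.21 for *Sp3*, 0.20 for *Sp4* and 0.30 for *Klf3*, and an unadjusted p of 0.0572 in limma for *Sp3*.

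*Sp6* (epiprofin), best known from teeth and skin, had the lowest level and the most negative fold change. It lies on chromosome 11 (97013569 to 97024739). The controls had an FPKM of 3.52 and 3.95 (178 and 181 reads), while Foxa1/2cKO 1 had 2.96 (108 reads) and Foxa1/2cKO 2 had 1.28 (48 reads). Both Foxa1/2cKO samples lay below both controls, Foxa1/2cKO 2 by more. Group means were 3.74 ± 0.302 and 2.12 ± 1.19 (SD, n = 2 each), and the difference on the log2 scale came to -0.65 (SE 0.29, 95% interval -1.43 to 0.12), with an adjusted p of 0.863 in limma, and to -0.26 without Foxa1/2cKO 2. The study picked *Sp6* on these same samples, so its direction is not independent evidence. Of the annotated exon bases of *Sp6*, 86.7% also lie in exons of *Gm11532* on the opposite strand, a gene without a value in the table. The strand setting of the gene counts is not given in the sources used here, and without strand the reads of both genes cannot be told apart.

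*Klf13*, *Klf6*, *Klf10* and *Klf7* had smaller fold changes. *Klf13* (chromosome 7, 63886351 to 63938915), which encodes a regulator of thymocyte survival and of *Ccl5*, had an FPKM of 103.4 and 103.1 in control against 103.2 and 106.2, from 7125 to 9901 reads. Its log2 fold change was 0.02 (SE 0.08, 95% interval -0.19 to 0.23), and -0.010 with upper-quartile scaling. The survival gene *Bcl2l1*, a reported target, had 53.7 and 56.8 FPKM against 57.5 and 60.7 (0.10, SE 0.09). *Ccl5*, a chemokine gene, had 5.03 and 2.64 against 5.23 and 4.24, from 19 to 40 reads (0.29, SE 0.28).

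*Klf6* (chromosome 13, 5861489 to 5870393) and *Klf10* (chromosome 15, 38291464 to 38300711) are early response genes, and TGF-β induces *Klf10*. *Klf6* had 12.9 and 12.6 FPKM in control against 11.2 in Foxa1/2cKO 1 and 12.8 in Foxa1/2cKO 2. *Klf10* had 16.8 and 16.7 against 14.0 and 17.0. In both genes Foxa1/2cKO 1 was low and Foxa1/2cKO 2 was at the control level, whereas in *Klf2* it was Foxa1/2cKO 2 that was low. The gaps between the Foxa1/2cKO samples were of ordinary size in *Klf6* and *Klf10*. Of the tested genes, 54.0% and 37.6% had a gap at least as large, against 1.67% for *Klf2*. The log2 fold changes were -0.08 for *Klf6* (SE 0.11, 95% interval -0.36 to 0.20) and -0.11 for *Klf10* (SE 0.12, 95% interval -0.43 to 0.21), and both were above 0 without Foxa1/2cKO 1. *Klf7* (chromosome 1, 64029448 to 64122345), known from the growth of axons, had 17.4 and 17.0 in control against 14.7 and 16.9, with Foxa1/2cKO 2 just below control 2. Its log2 fold change was -0.12 (SE 0.11, 95% interval -0.40 to 0.15), -0.03 without Foxa1/2cKO 1 and -0.21 without Foxa1/2cKO 2. Of the 50-base stretches of its longest transcript 40.8% also occur in another gene, *Gm26649* on the opposite strand, with the same limit as for *Sp6*.

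**Figure D3:**
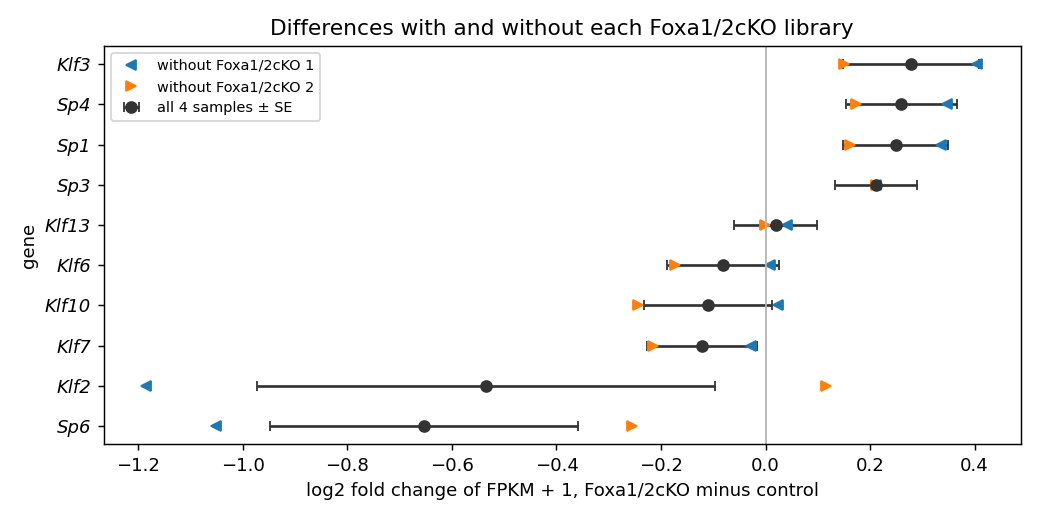
Log2 fold change of FPKM + 1 (Foxa1/2cKO minus control) for each gene with its SE from limma (black), and the same value without Foxa1/2cKO 1 (blue) or without Foxa1/2cKO 2 (orange). *Klf2* lies at -1.19 without Foxa1/2cKO 1 and at 0.12 without Foxa1/2cKO 2. *Sp3*, nearly equal in both Foxa1/2cKO samples, stays at 0.21.

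Leaving out a Foxa1/2cKO sample changed the calls. Without Foxa1/2cKO 1, the adjusted p in limma was 0.00124 for *Klf2* (log2 fold change -1.19), 0.00751 for *Sp6* (-1.05), 0.0187 for *Sp1* (0.34), 0.0272 for *Klf3* (0.41) and 0.0299 for *Sp4* (0.35). These 5 of the 10 passed the threshold, as did 23.7% of all tested genes. In that fit Foxa1/2cKO 2 stands alone and is assumed to vary as the controls do. Without Foxa1/2cKO 2, 0 of the 10 and 0.176% of all tested genes passed.

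Cofactors, TGF-β pathway genes and the other family genes had no call either. Of 10 tested genes for corepressors and coactivators that KLF or SP proteins bind, 0 passed an adjusted p of 0.05 in limma, 0 had an unadjusted p under 0.05, and the median log2 fold change was 0.06. *Kat2b*, an acetyltransferase gene, had 15.6 and 14.7 FPKM in control against 16.4 and 18.2 (0.18, SE 0.10). *Taf4a*, a subunit of TFIID that SP1 contacts, had 25.6 and 24.0 against 21.4 and 22.2 (-0.18, SE 0.09). Of 7 TGF-β pathway genes 0 passed and 0 had an unadjusted p under 0.05, with a median of 0.04. *Smad3*, a signal transducer, had 23.6 and 24.1 against 27.4 and 26.7 (0.18, SE 0.08), higher in both Foxa1/2cKO samples. *Tgfbr1*, a receptor gene, had 16.8 and 16.9 against 17.3 and 13.3 (-0.14, SE 0.14).

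Genes of cell cycle inhibitors were listed as dependent on KLF4, and *Klf4* itself reached an FPKM of 0.444 at most. *Cdkn1c* had 5.16 and 5.12 FPKM in control against 3.62 and 3.95 in Foxa1/2cKO, from 150, 135, 76 and 85 reads. Both Foxa1/2cKO samples were lower, with a log2 fold change of -0.36 (SE 0.12), an unadjusted p of 0.0309 and an adjusted p of 0.863 in limma. The unadjusted p was 0.0581 without the filter, 0.0549 in limma-voom, 0.0712 with the replicate block, and 0.195 and 0.186 without control 1 and control 2. *Cdkn1b* had 58.6 and 53.9 against 58.3 and 67.1 (0.15, SE 0.11). *Cdkn1a* was too low to be tested, with 8 to 29 reads.

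Of the 16 further genes of both families with a row, 6 were listed at 0 in all samples (*Klf14*, *Klf17*, *Sp5*, *Sp7*, *Sp8* and *Sp9*), where 3 reads are an FPKM of up to 0.132. A further 7 (*Klf1*, *Klf4*, *Klf5*, *Klf8*, *Klf9*, *Klf12* and *Klf15*) stayed below an FPKM of 1. *Klf1* is the erythroid factor of the family. The remaining 3 were tested, and in limma 0 of them passed and 0 had an unadjusted p under 0.05. *Sp2* had 33.4 and 36.6 FPKM against 32.8 and 37.9 (0.01, SE 0.11). *Klf16* had 15.3 and 12.1 against 13.2 and 17.6 (0.16, SE 0.18). *Klf11*, a relative of *Klf10*, had 1.33 and 1.54 against 1.16 and 1.11, from 49 to 83 reads (-0.18, SE 0.17).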

How the data were processed

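RNA from sorted CD69+DP thymocytes was sequenced in 4 samples, 2 per genotype. The reads had been aligned by the authors to mm10 (RefSeq), counted with HTSeq in union mode and tested with DESeq2. The authors then re-estimated the p-values with fdrtool from the DESeq2 z-scores before adjusting them. That step was not run here. TopHat and Picard are also named in the submitters' processing notes. The deposited values are FPKM, and how they were made from counts is not given in the sources used here. Whole reads were recovered from the steps of the values, up to a common divisor and within 0.01 of a whole number, for 100% of 16069 genes above 0. For 7.47% of them, *Klf7* included, they were multiplied to reach the annotated length. The length found for *Klf3* may be a divisor of the true one.

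limma 3.58.1 (R 4.3.3) was fitted to the whole table with a mean-variance trend, a pseudocount of 1 and 2 residual degrees of freedom. Tests were two-sided, Benjamini-Hochberg adjusted, at 0.05, and measure only the spread between these samples. The fit was tested on simulated data. The named genes are the 10 KLF and SP genes, genes of related lists (short lists whole, otherwise the smallest p per direction) and the nearest genes of *Klf2* by Euclidean distance. The 10 genes and all lists were chosen with earlier results of these data known. Alternatives were a pseudocount of 0.1, no filter or a stricter filter, upper-quartile scaling, a replicate block, limma-voom, a threshold of 0.1 and leaving out each sample. A length correction was added after seeing the data. Of the lists, 1 gene was left out and is not reported here. The paper reports differential exon usage for *Klf13* and *Sp3*, which FPKM of whole genes do not show. Exon usage was not analysed here. Tables and figures used Python 3.11.15 and matplotlib 3.10.9.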

Additional observations from a re-analysis of the deposited data

How the results depend on the processing

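With each sample left out, 0 to 5 of the 10 KLF and SP genes had an adjusted p under 0.05, 0 to 6 an unadjusted p under 0.05, and 0 to 2559 of all genes an adjusted p under 0.05, the highest without Foxa1/2cKO 1. Of all genes 0 in place of 1 passed with a pseudocount of 0.1, without the filter, with an FPKM of at least 1 in all samples and with limma-voom. Of the 10, 2 had an unadjusted p under 0.05 without the filter (4.99% of all genes) and with limma-voom (4.84%), and 0 with upper-quartile scaling (4.91%) and with the added length correction (4.11%). The 6 without Foxa1/2cKO 1 stood beside 39.2% of all genes and the 3 without Foxa1/2cKO 2 beside 17.5%. The replicate numbers did not pair the samples (deviations of same-numbered samples had a correlation of -0.0587 across genes). With the replicate block 0 of the 10 had an adjusted p under 0.05 and 1, *Sp6* in place of *Sp3*, an unadjusted p under 0.05 (3.51% of all genes), also with the length correction added to the block. *Klf13* turned to -0.010 with upper-quartile scaling and to -0.0087 with length correction, with or without the block. *Sp2* turned to -0.018 with upper-quartile scaling. Other log2 fold changes turned when a sample was left out, and then ranged from -1.19 to 0.12 for *Klf2*, -0.17 to 0.0079 for *Klf6*, -0.24 to 0.023 for *Klf10*, -0.00079 to 0.041 for *Klf13*, -0.034 to 0.35 for *Klf16*, -0.088 to 0.11 for *Sp2*, -0.93 to 0.031 for *S1pr1*, -0.48 to 0.22 for *Itgb7*, -0.32 to 0.033 for *Tgfbr1*, -0.078 to 0.65 for *Ccl5* and -1.46 to 0.10 for *Il7r*. The sample was a Foxa1/2cKO sample except for *Ccl5* (control 2) and, at -0.05, *Sp2* (control 1). The cause of these shifts was not tested. *Klf3*, *Klf7*, *Sp1*, *Sp3*, *Sp4* and *Sp6* kept their direction under all alternatives run. In these genes the groups did not overlap, so leaving out a sample could not turn the direction. With 2 samples per group, the limma intervals of *Klf3*, *Klf7*, *Sp1*, *Sp4* and *Sp6* included 0. That of *Sp3* ran from 0.0049 to 0.42.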
